A study of Mus musculus with 8 samples.

Results

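The 37 genes described here encode the unfolded protein response and the protein folding machinery of the endoplasmic reticulum (ER) in mouse pancreatic islets. They were chosen by name as the sensors, transcription factors and known targets of the 3 branches of the response, with the folding enzymes and the ER-associated degradation machinery (with earlier results of these arrays known), and no difference between genotypes enters the rule, which takes each gene's brightest probe. All 37 had a probe on the array, and all 37 were well above background on all 8 arrays, out of 16955 genes that could be compared. Islets were hand-picked from male C57BL/6 mice on a standard diet after collagenase digestion of the pancreas. By the description of the mouse model, the β-CB1R−/− mice carried Cnr1 flox/flox, the gene of the cannabinoid receptor CB1R flanked by loxP sites, and MIP-Cre/ERT, a tamoxifen-inducible Cre driven by a mouse insulin promoter, so that the receptor was deleted in adult beta cells. Their β-CB1R+/+ control littermates carried Cnr1 flox/flox without MIP-Cre/ERT, and both groups received daily i.p. tamoxifen for 5 days. By that description Cre was present in the β-CB1R−/− mice alone, and an effect of Cre and of the receptor's loss then cannot be told apart on these arrays. The labels name the groups only as CB1 WT and CB1 KO, and the growth protocol speaks of a global knockout while the title of the series names a beta cell-specific one. The control group held 4 mice and the β-CB1R−/− group 3, each a separate sample, and β-CB1R−/− mouse 2 was hybridised on a pair of repeat arrays whose log2 values were averaged. The age of these mice is not given in the sources used here.

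Proteins that enter the secretory pathway, insulin above all in a beta cell, are folded in the ER with the help of chaperones and of oxidoreductases that form disulfide bonds. When unfolded protein builds up, the sensors PERK (Eif2ak3), IRE1α (Ern1) and ATF6 signal from the ER membrane to the nucleus. PERK slows translation and favours production of the transcription factor ATF4, IRE1α splices the mRNA of Xbp1 into the form that encodes an active factor, and ATF6 is cleaved to release its own transcription factor domain. Splicing, phosphorylation and cleavage are not visible to these probes, which measured only the abundance of each transcript.

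Response elements in promoters are short sequences that transcription factors of the response can read, and some are shared between its arms. The windows searched were the 300 bases from 250 before to 50 after the transcription start in RefSeq (GRCm38.p6), which were at hand for 33 of the 37 genes (not for Atf6, Hyou1, Manf and Derl1) and for 27025 genes in all. The ER stress response element (ERSE), read by ATF6 and XBP1 together with NF-Y, was searched on both strands as CCAAT, any 9 bases and CCACG. It was found in 10 of the 33 genes (30.3%) and in 0.137% of all 27025. Known targets of the response were chosen by name, so a larger share of elements, here and below, is not a finding of these data. The 10 were Calr, Canx, Creld2, Derl3, Dnajc3, Ero1lb, Hsp90b1 (at 2 sites), Hspa5, Pdia6 and Syvn1. These sites are shown because their genes recur below, 5 for genes that stood highest in β-CB1R+/+ mouse 1 and 2 for genes that did not. Each is read 5′ to 3′ along the gene's own strand with 12 flanking bases on each side, and the capitals mark the element from its first to its last letter, the spacer included.
Hspa5 (chr2:34772013-34772055, + strand): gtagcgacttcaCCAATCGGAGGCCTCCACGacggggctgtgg
Creld2 (chr15:88819508-88819550, + strand): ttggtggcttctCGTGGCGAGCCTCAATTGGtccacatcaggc
Pdia6 (chr12:17266479-17266521, + strand): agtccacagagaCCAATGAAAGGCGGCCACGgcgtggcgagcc
Dnajc3 (chr14:118937815-118937857, + strand): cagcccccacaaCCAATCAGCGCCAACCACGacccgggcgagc
Syvn1 (chr19:6046520-6046562, + strand): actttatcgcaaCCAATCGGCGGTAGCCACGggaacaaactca
Hsp90b1 (chr10:86705521-86705563, − strand): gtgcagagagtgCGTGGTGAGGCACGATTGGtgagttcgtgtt
Derl3 (chr10:75893230-75893272, + strand): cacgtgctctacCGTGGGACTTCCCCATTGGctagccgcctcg

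The C/EBP-ATF response element (CARE), read by ATF4 and its partners, was searched on both strands as TGATGNAA. It was found in Asns, Chac1, Herpud1 and Trib3, which is 12.1% of the 33 genes, and in 4.51% of all 27025. The match in Trib3 lay after the transcription start and is not printed. The shorter ERSE-II, searched as ATTGGNCCACG, was found in Dnajb11, after its start, and in Herpud1 (6.06%, against 0.0444% of all genes). The XBP1 element TGACGTGG was found in 0 of the 33 genes and in 0.714% of all. These matches describe letters in a window and are not evidence of binding in islets. The first 3 sites below are CARE matches, shown for targets of ATF4, and the last is the ERSE-II of Herpud1.
Chac1 (chr2:119351037-119351068, + strand): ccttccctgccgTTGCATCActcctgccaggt
Asns (chr6:7693213-7693244, − strand): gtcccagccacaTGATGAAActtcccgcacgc
Herpud1 (chr8:94386305-94386336, + strand): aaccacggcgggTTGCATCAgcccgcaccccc
Herpud1 (chr8:94386365-94386399, + strand): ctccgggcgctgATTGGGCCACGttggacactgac

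Values are log2 intensities with each array's 75th percentile set to 0, so 1 unit is a doubling and a negative value lies below that percentile. The deleted gene, Cnr1, was at −0.60 ± 0.46 (SD, n = 4) in β-CB1R+/+ and −2.57 ± 0.49 (SD, n = 3) in β-CB1R−/− islets, with no overlap between the mice. Its log2 difference of −1.97 (standard error 0.33, limma unadjusted p = 0.000335) had an adjusted p of 0.193, so the deleted gene itself missed the adjusted threshold. Between 33304 and 39988 probes were well above background on each array, and the number of arrays rather than counting error limits the precision. All arrays were on 1 slide with one genotype on each side, so position on the slide and genotype cannot be told apart. In whole islets fewer cells of a type and less RNA per cell cannot be told apart. β-CB1R+/+ mouse 2 and β-CB1R−/− mouse 3 stood apart in the RNA of acinar cells, the enzyme-secreting cells around the islets, and β-CB1R+/+ mice 3 and 4 and β-CB1R−/− mouse 2 stood apart in immediate-early genes. Both patterns cross the genotypes, and their values are given after the genes they touch.

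None of the 37 genes differed between β-CB1R−/− and β-CB1R+/+ islets after adjustment over all probes (limma with Benjamini-Hochberg adjustment, adjusted p = 0.999 for each), where 0.171% of the 16955 genes did. At an unadjusted p under 0.05, limma found 1 of the 37, Trib3, which was higher in β-CB1R−/− islets. That share of 2.7% stands beside 3.9% of all genes in either direction and 1.88% in that direction. Trib3 was also the only gene of the 37 whose values did not overlap between the genotypes (2.7%), against 4.83% of all genes in either direction and 2.61% with β-CB1R−/− higher. By these counts the 37 genes did not stand out from the genes of the array. Of the 37, 17 were higher and 20 lower in β-CB1R−/− islets, and the median log2 difference was −0.04, the same as the −0.04 over all genes, of which 44.3% were higher. Leaving out 1 mouse at a time moved the log2 difference by over 1.5 times, or turned its sign, for 36 of the 37 genes, all but Trib3, and the sign turned for 15. For 23 of the 37 the 95% confidence interval of the log2 difference lay wholly between −1 and 1, against 66.9% of all genes. For those 23 both a doubling and a halving lay outside the interval, and for the other 14 at least one of them lay inside.

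**Figure D1:**
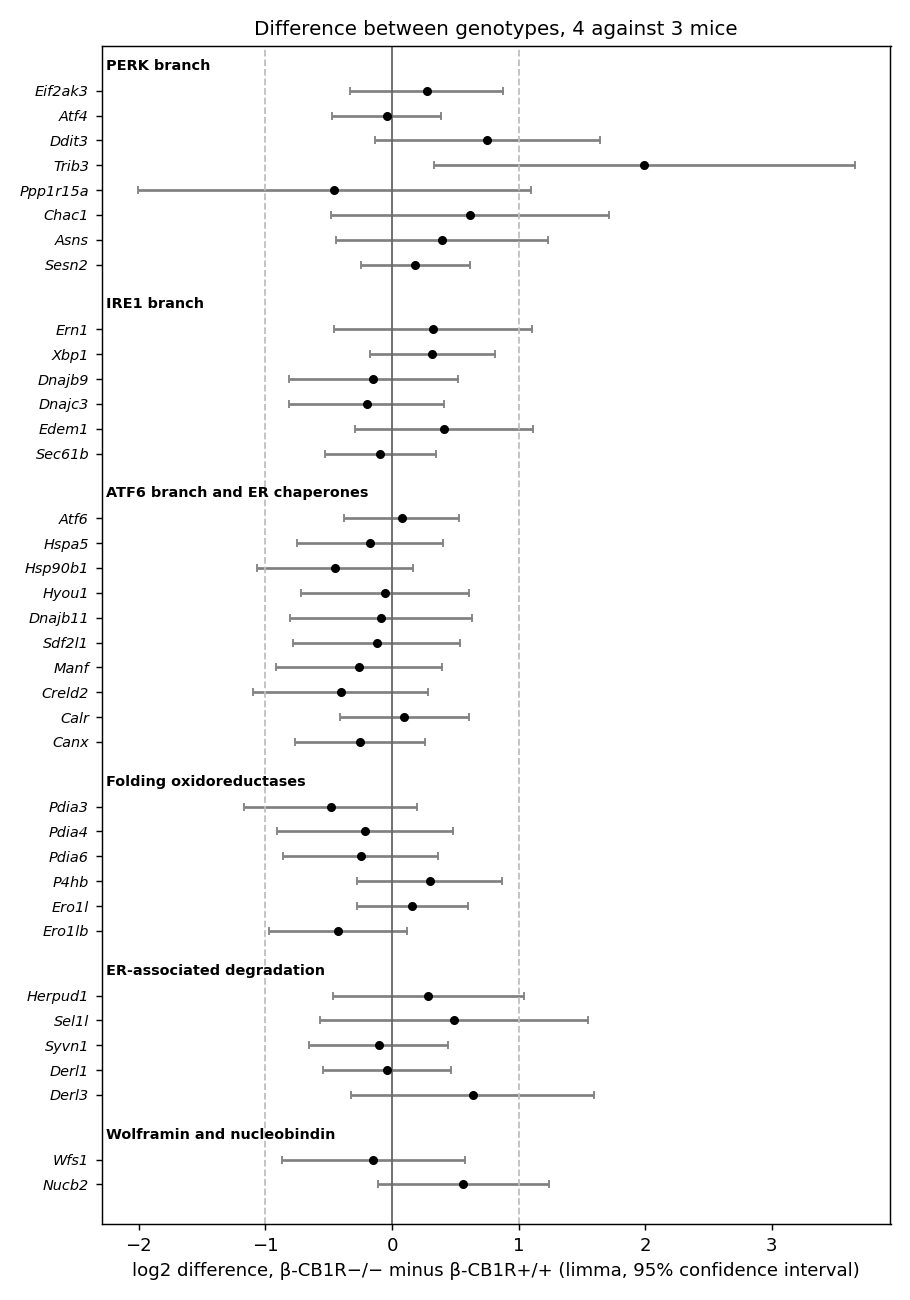
The log2 difference between genotypes (x axis, β-CB1R−/− minus β-CB1R+/+, 3 against 4 mice) of each of the 37 genes, grouped by role. Points are limma estimates, bars their 95% confidence intervals, and dashed lines mark −1 and 1. The interval of Trib3 (0.33 to 3.65) is the only one that does not cross 0.

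The 8 genes of the PERK branch had a median log2 difference of 0.34, with 6 higher and 2 lower in β-CB1R−/− islets. The median was 0.17 without β-CB1R+/+ mouse 2 and 0.59 without β-CB1R−/− mouse 3, and 0.20 with the mean of the acinar genes described below as a covariate. Eif2ak3, the kinase PERK itself, was at 2.84, 2.30, 2.67 and 2.84 in β-CB1R+/+ mice 1 to 4 and at 3.34, 2.98 and 2.49 in β-CB1R−/− mice 1 to 3. The genotypes overlapped, and the log2 difference was 0.27 (standard error 0.26, 95% confidence interval −0.33 to 0.88, limma adjusted p = 0.999, exact permutation p = 0.371). It was 0.07 without β-CB1R−/− mouse 1 and 0.50 without β-CB1R−/− mouse 3.

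Atf4, the transcription factor whose translation PERK favours, was at 7.37, 7.20, 7.51 and 7.36 in β-CB1R+/+ mice and at 7.15, 7.52 and 7.28 in β-CB1R−/− mice. The genotypes overlapped, and the log2 difference was −0.04 (standard error 0.19, limma adjusted p = 0.999). Ddit3 encodes CHOP, the factor that links lasting ER stress to apoptosis. It was at 0.78, 0.52, 0.91 and 0.43 in β-CB1R+/+ mice and at 0.78, 2.41 and 1.05 in β-CB1R−/− mice. β-CB1R−/− mouse 2 lay far above the other 6 mice, and its repeat arrays read 2.40 and 2.42. The log2 difference was 0.75 (standard error 0.39, 95% confidence interval −0.14 to 1.64, limma unadjusted p = 0.0867, adjusted p = 0.999), and 0.26 without that mouse.

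Trib3, a pseudokinase induced by ATF4 and CHOP that restrains insulin signalling through AKT, showed the widest difference of the 37. It was at 1.26, −1.08, 1.91 and 1.46 in the controls and at 2.28, 3.80 and 2.56 in β-CB1R−/− mice. Every β-CB1R−/− mouse lay above every β-CB1R+/+ mouse, with a gap of 0.36 between the nearest. The means were 0.89 ± 1.34 (SD, n = 4) and 2.88 ± 0.81 (SD, n = 3). The log2 difference was 1.99 (standard error 0.72, 95% confidence interval 0.33 to 3.65, limma unadjusted p = 0.0244, adjusted p = 0.999), which is 3.98-fold with an interval from 1.26 to 12.6. The two-sided exact permutation p for this difference was 0.0571, where the smallest that 35 splits allow is 0.0286. β-CB1R+/+ mouse 2 and β-CB1R−/− mouse 2 were the extremes. Without the first the log2 difference was 1.34 (limma unadjusted p = 0.016), and without the second it was 1.53 (limma unadjusted p = 0.1).

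Chac1, a glutathione-degrading enzyme downstream of ATF4 and CHOP, was at 3.83, 2.29, 3.97 and 3.82 in β-CB1R+/+ mice and at 3.67, 4.84 and 3.78 in β-CB1R−/− mice. Its lowest and highest mice were the same as those of Trib3, and the other 5 mice lay between 3.67 and 3.97. The log2 difference was 0.62 (standard error 0.48, limma adjusted p = 0.999), and it fell to 0.22 without β-CB1R+/+ mouse 2 and to 0.25 without β-CB1R−/− mouse 2. Ppp1r15a encodes GADD34, the phosphatase subunit that restores translation after PERK has acted. It was at 2.96, 3.83, 5.29 and 4.25 in β-CB1R+/+ mice and at 2.71, 5.01 and 3.16 in β-CB1R−/− mice, with a log2 difference of −0.46 (standard error 0.67, 95% confidence interval −2.01 to 1.1, limma adjusted p = 0.999). The highest 3 mice, β-CB1R+/+ mice 3 and 4 and β-CB1R−/− mouse 2, came from both genotypes. In these mice Fos, an immediate-early gene, was at 6.31, 5.34 and 5.84, against −1.59 to 0.75 in the other 4. The part of that state in the values of Ppp1r15a was not tested. Asns, the asparagine synthetase that ATF4 induces, had a log2 difference of 0.40 (standard error 0.36), which ran from 0.14 without β-CB1R−/− mouse 1 to 0.69 without β-CB1R−/− mouse 3, and Sesn2, a stress sensor that dampens mTORC1, of 0.19 (standard error 0.19). The 4 genes with a CARE match, which are Asns, Chac1, Herpud1 and Trib3, were all higher in β-CB1R−/− islets, by 0.29 to 1.99 with a median of 0.51, and 3 of the 4 were highest in β-CB1R−/− mouse 2. Without that mouse 3 were higher and Herpud1 was lower, with a median of 0.30, and without β-CB1R+/+ mouse 2 the median was 0.22.

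**Figure D2:**
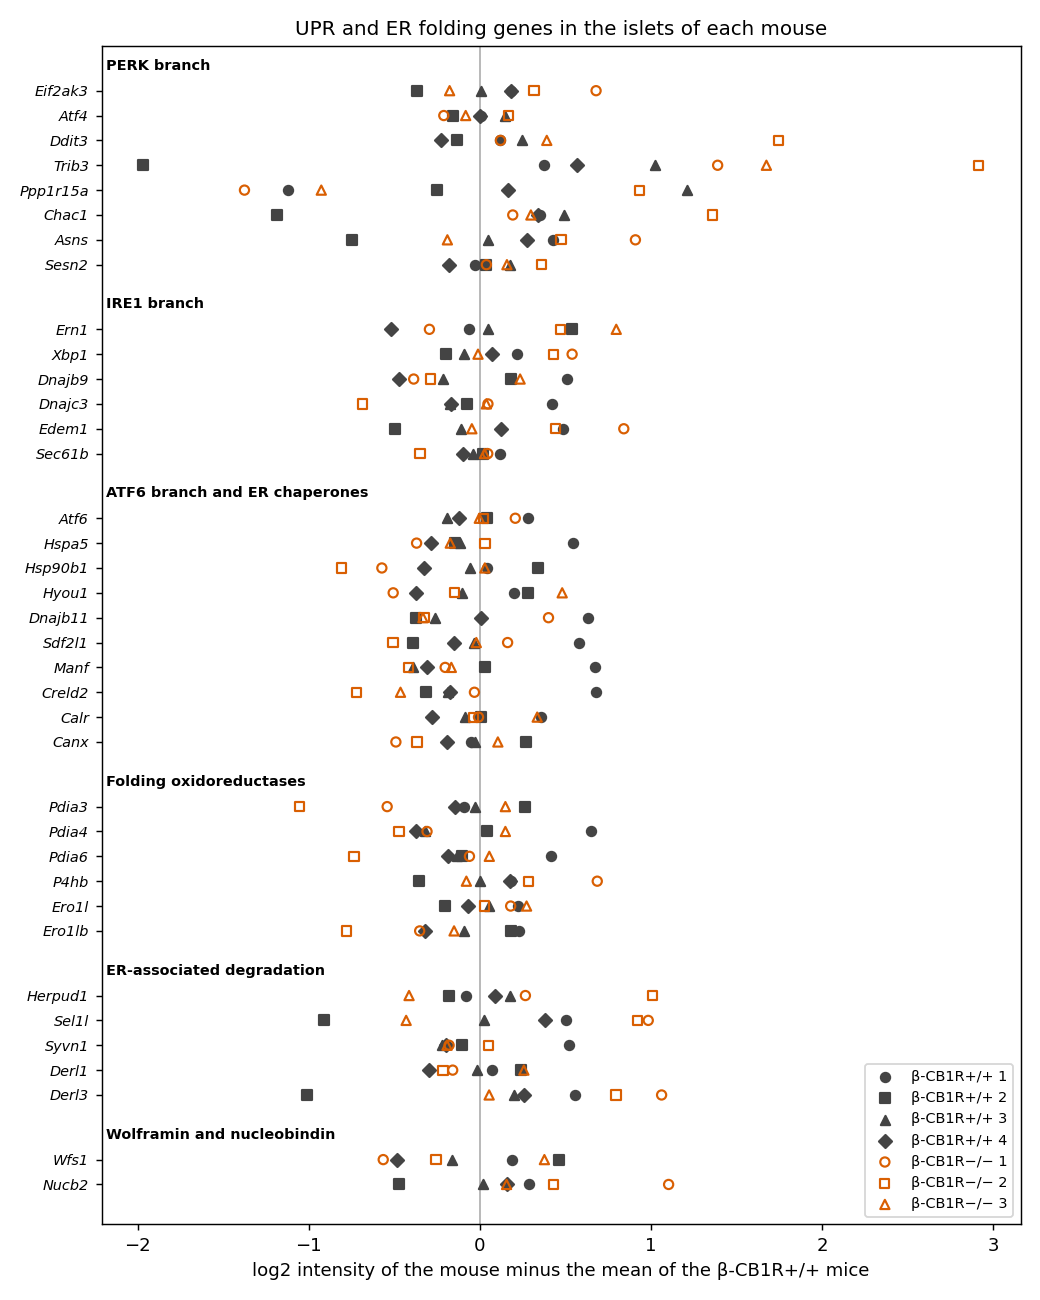
The log2 intensity of each of the 37 genes in each mouse (x axis), as the deviation from the mean of the β-CB1R+/+ mice. Filled grey symbols are the 4 β-CB1R+/+ mice and open orange symbols the 3 β-CB1R−/− mice. The genotypes separate for Trib3 alone, β-CB1R+/+ mouse 1 (filled circles) lies to the right for most chaperones, and β-CB1R−/− mouse 2 (open squares) lies to the right for Ddit3, Trib3 and Chac1 and to the left for several folding genes.

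The IRE1 branch was split, with 3 of its 6 genes higher and 3 lower and a median log2 difference of 0.11, which was −0.03 without β-CB1R−/− mouse 3. Ern1, the sensor that splices Xbp1, was at 2.18, 2.79, 2.30 and 1.73 in β-CB1R+/+ mice and at 1.96, 2.72 and 3.05 in β-CB1R−/− mice. The ranges overlapped over most of their length, and the log2 difference was 0.32 (standard error 0.34, 95% confidence interval −0.46 to 1.11, limma adjusted p = 0.999). It was 0.09 without β-CB1R−/− mouse 3 and 0.63 without β-CB1R−/− mouse 1. Xbp1 was at 7.29, 6.88, 6.99 and 7.15 in β-CB1R+/+ mice and at 7.62, 7.51 and 7.07 in β-CB1R−/− mice. A pair of β-CB1R−/− mice lay above all the β-CB1R+/+ mice and the third lay among them, and the log2 difference was 0.32 (standard error 0.22, 95% confidence interval −0.18 to 0.82, limma adjusted p = 0.999, exact permutation p = 0.171). It was 0.21 without β-CB1R−/− mouse 1, 0.48 without β-CB1R−/− mouse 3 and 0.16 after quantile normalisation. The probe does not tell the spliced from the unspliced mRNA, as far as its annotation says. Among the targets, Edem1, which hands misfolded glycoproteins over for degradation, had a log2 difference of 0.41 (standard error 0.31), which ran from 0.20 without β-CB1R−/− mouse 1 to 0.64 without β-CB1R−/− mouse 3. The log2 differences of the co-chaperones Dnajb9 (−0.15, standard error 0.29) and Dnajc3 (−0.20, standard error 0.27) and of the translocon subunit Sec61b (−0.09, standard error 0.19) were below 0.

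Of the 10 genes of the ATF6 branch and the ER chaperones, 8 were lower in β-CB1R−/− islets, with a median log2 difference of −0.15. That split rested on β-CB1R+/+ mouse 1, without which 6 were higher and 4 lower with a median of 0.0096. Atf6, the sensor, was at 1.08, 0.84, 0.61 and 0.68 in β-CB1R+/+ mice and at 1.01, 0.82 and 0.80 in β-CB1R−/− mice, all 3 inside the range of the controls. Its log2 difference was 0.08 (standard error 0.20, 95% confidence interval −0.38 to 0.53, limma adjusted p = 0.999).

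Hspa5 encodes BiP, the main chaperone of the ER lumen, which also holds the sensors inactive. It was at 8.27, 7.59, 7.62 and 7.45 in β-CB1R+/+ mice and at 7.36, 7.76 and 7.56 in β-CB1R−/− mice. β-CB1R+/+ mouse 1 was highest and the other 6 mice lay between 7.36 and 7.76. The log2 difference was −0.17 (standard error 0.25, 95% confidence interval −0.75 to 0.41, limma adjusted p = 0.999), and 0.01 without that mouse. The same mouse was highest for 6 other genes of this group: Atf6, the co-chaperones Dnajb11 and Sdf2l1, the secreted factor Manf, Creld2 and the lectin chaperone Calr. Creld2, an ER stress-inducible secreted factor, was at 6.76 in it and at 5.77 to 5.91 in the other β-CB1R+/+ mice, against 5.36 to 6.06 in β-CB1R−/− mice, with a log2 difference of −0.41 (standard error 0.30). Hsp90b1, the ER form of HSP90 (GRP94), behaved otherwise. It was at 7.04, 7.34, 6.94 and 6.67 in β-CB1R+/+ mice and at 6.43, 6.19 and 7.03 in β-CB1R−/− mice, with a log2 difference of −0.45 (standard error 0.27, 95% confidence interval −1.06 to 0.16, limma unadjusted p = 0.128). It was −0.27 without β-CB1R−/− mouse 2 and −0.69 without β-CB1R−/− mouse 3, and its sign turned, to above 0, with another background correction (normexp). The membrane lectin Canx was likewise highest in β-CB1R+/+ mouse 2 and lowest in β-CB1R−/− mice 1 and 2, with a log2 difference of −0.25 (standard error 0.22). Hyou1, Dnajb11, Sdf2l1 and Manf had log2 differences from −0.26 to −0.06, and Calr of 0.10.

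The folding oxidoreductases had a median log2 difference of −0.23, with 4 of 6 lower. The median was −0.05 without β-CB1R+/+ mouse 1 and −0.04 without β-CB1R−/− mouse 2. Pdia3 (ERp57), which works with calnexin and calreticulin on glycoproteins, was at 4.82, 5.18, 4.88 and 4.77 in β-CB1R+/+ mice and at 4.37, 3.86 and 5.06 in β-CB1R−/− mice. A pair of β-CB1R−/− mice lay below all controls and the third lay above all but 1 of them. Its log2 difference was −0.48 (standard error 0.30, 95% confidence interval −1.17 to 0.20, limma unadjusted p = 0.142), which became −0.20 without β-CB1R−/− mouse 2 and −0.80 without β-CB1R−/− mouse 3. Ero1lb, the oxidase that recharges the disulfide isomerases and is abundant in beta cells, was at 6.83, 6.78, 6.50 and 6.28 in β-CB1R+/+ mice and at 6.24, 5.82 and 6.45 in β-CB1R−/− mice, with a log2 difference of −0.43 (standard error 0.24, 95% confidence interval −0.98 to 0.12, limma unadjusted p = 0.109) and −0.25 without β-CB1R−/− mouse 2. Its widely expressed relative Ero1l had a log2 difference of 0.16 (standard error 0.19). Of the isomerases, Pdia4 (−0.21, standard error 0.30) and Pdia6 (−0.25, standard error 0.27), both of the disulfide isomerase family, had log2 differences below 0, and P4hb, the founding disulfide isomerase, one of 0.30 (standard error 0.25).

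The 5 genes of ER-associated degradation had a median log2 difference of 0.29, with 3 higher and 2 lower, and from 0.05 to 0.64 when 1 mouse was left out. Herpud1, a membrane scaffold of the degradation complex, was at 5.46, 5.36, 5.72 and 5.63 in β-CB1R+/+ mice and at 5.81, 6.55 and 5.13 in β-CB1R−/− mice. It was both highest and lowest in β-CB1R−/− mice, with a log2 difference of 0.29 (standard error 0.33). Sel1l, the adaptor of the ubiquitin ligase, was at 3.63, 2.22, 3.16 and 3.51 in β-CB1R+/+ mice and at 4.11, 4.05 and 2.70 in β-CB1R−/− mice. Derl3, a derlin found mostly in secretory tissues, was at 4.60, 3.03, 4.24 and 4.30 in β-CB1R+/+ mice and at 5.10, 4.84 and 4.10 in β-CB1R−/− mice. For both genes, β-CB1R+/+ mouse 2 was lowest, β-CB1R−/− mouse 3 came next, and β-CB1R−/− mice 1 and 2 were highest. The log2 differences were 0.49 for Sel1l (standard error 0.46, 95% confidence interval −0.57 to 1.55, limma adjusted p = 0.999) and 0.64 for Derl3 (standard error 0.42, 95% confidence interval −0.32 to 1.60, limma adjusted p = 0.999). Without β-CB1R+/+ mouse 2 they were 0.19 and 0.30, without β-CB1R−/− mouse 3 they were 0.95 and 0.93, and with the acinar mean described below as a covariate 0.25 and 0.42. Syvn1, the ligase HRD1, and Derl1 had log2 differences of −0.11 (standard error 0.24) and −0.04 (standard error 0.22).

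Wfs1 and Nucb2 stood outside these branches. Wfs1 encodes wolframin, an ER membrane protein whose loss causes diabetes, and its log2 difference was −0.15 (standard error 0.31). Nucb2, the calcium-binding precursor of nesfatin, was at 4.56, 3.80, 4.29 and 4.43 in β-CB1R+/+ mice and at 5.38, 4.70 and 4.43 in β-CB1R−/− mice. The lowest β-CB1R−/− mouse lay beside the second highest control, and the log2 difference was 0.56 (standard error 0.29, 95% confidence interval −0.11 to 1.24, limma unadjusted p = 0.091), and 0.29 without β-CB1R−/− mouse 1.

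For 27 of the 37 genes the difference between genotypes was smaller than the SD between mice of 1 genotype. The exceptions were Ddit3, Trib3, Sesn2, Xbp1, Hsp90b1, Canx, Pdia3, Ero1lb, Derl3 and Nucb2, 27% of the 37 beside 24.5% of all genes. That SD had a median of 0.39 over the 37 genes and of 0.33 over all genes. It was largest for Trib3 (1.16), Ppp1r15a (1.08), Chac1 (0.74), Sel1l (0.71) and Derl3 (0.63), and smallest for Atf4 and Sesn2 (0.15 each). The repeat arrays of β-CB1R−/− mouse 2 differed by a median of 0.056 over the 37 genes, against 0.099 over all genes, and by at most 0.16 (Hsp90b1). For all 37 genes this single technical difference was smaller than the SD between mice.

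**Figure D3:**
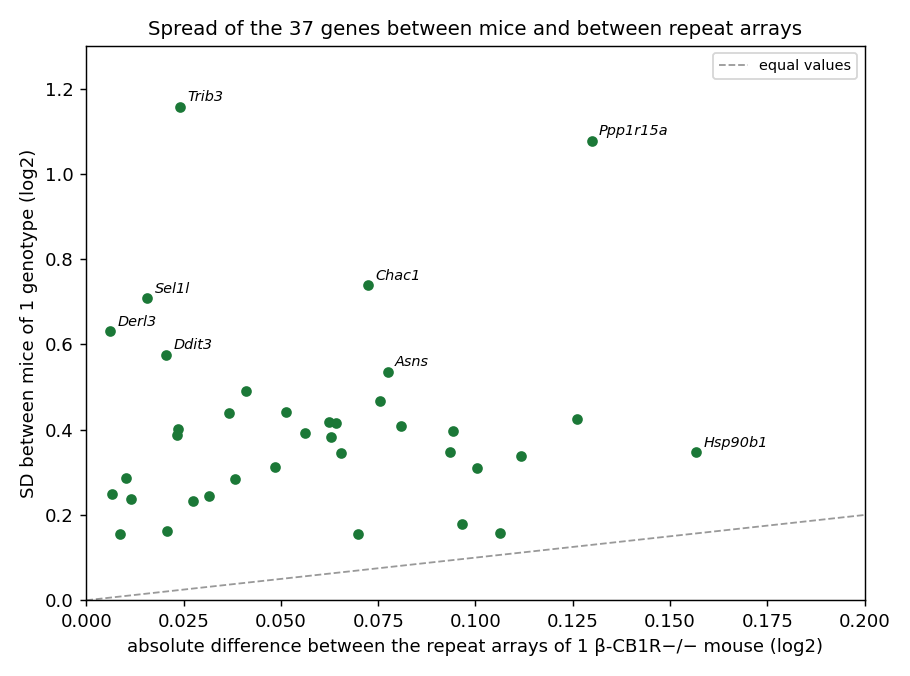
For each of the 37 genes, the SD between mice of 1 genotype (y axis, log2) against the absolute difference between the repeat arrays of β-CB1R−/− mouse 2 (x axis, log2). Every gene lies above the dashed line of equal values, and Trib3 and Ppp1r15a reach an SD of 1.16 and 1.08.

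Several genes of a branch were high or low in the same mouse. β-CB1R+/+ mouse 1 was highest of the 7 mice for 14 of the 37 genes (37.8%), against 18.6% of all genes, and lowest for 0. The 14 were mainly lumenal folding factors, namely Hspa5, Dnajb9, Dnajc3, Dnajb11, Sdf2l1, Manf, Creld2, Calr, Pdia4, Pdia6 and Ero1lb, with Sec61b, Atf6 and Syvn1. They included 7 of the 10 genes with an ERSE. Of those 10, 2 were higher and 8 lower in β-CB1R−/− islets with a median log2 difference of −0.22, and without this mouse 4 were higher and 6 lower with a median of −0.08. Without β-CB1R−/− mouse 3 the split was 1 and 9 with a median of −0.35. β-CB1R−/− mouse 2 was highest for 6, Atf4, Ddit3, Trib3, Chac1, Sesn2 and Herpud1 (16.2%, against 11.6% of all genes), of which all but Herpud1 belong to the PERK branch. It was lowest for 10, namely Dnajc3, Sec61b, Hsp90b1, Sdf2l1, Manf, Creld2, Pdia3, Pdia4, Pdia6 and Ero1lb (27%, against 21.5% of all genes), most of them folding factors. The mean deviation of the PERK branch from its average over the mice was 0.83 in that mouse, and that of the folding oxidoreductases was −0.39. In β-CB1R+/+ mouse 1 the same means were −0.16 and 0.33, and in β-CB1R+/+ mouse 2 they were −0.80 and 0.04. β-CB1R+/+ mouse 2 was lowest for 12 of the 37 genes (32.4%, against 15.9% of all genes). The 12 were Eif2ak3, Trib3, Chac1, Asns, Xbp1, Edem1, Dnajb11, P4hb, Ero1l, Sel1l, Derl3 and Nucb2. It was highest for 4, Hsp90b1, Canx, Pdia3 and Wfs1 (10.8%, against 26.5% of all genes).

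**Figure D4:**
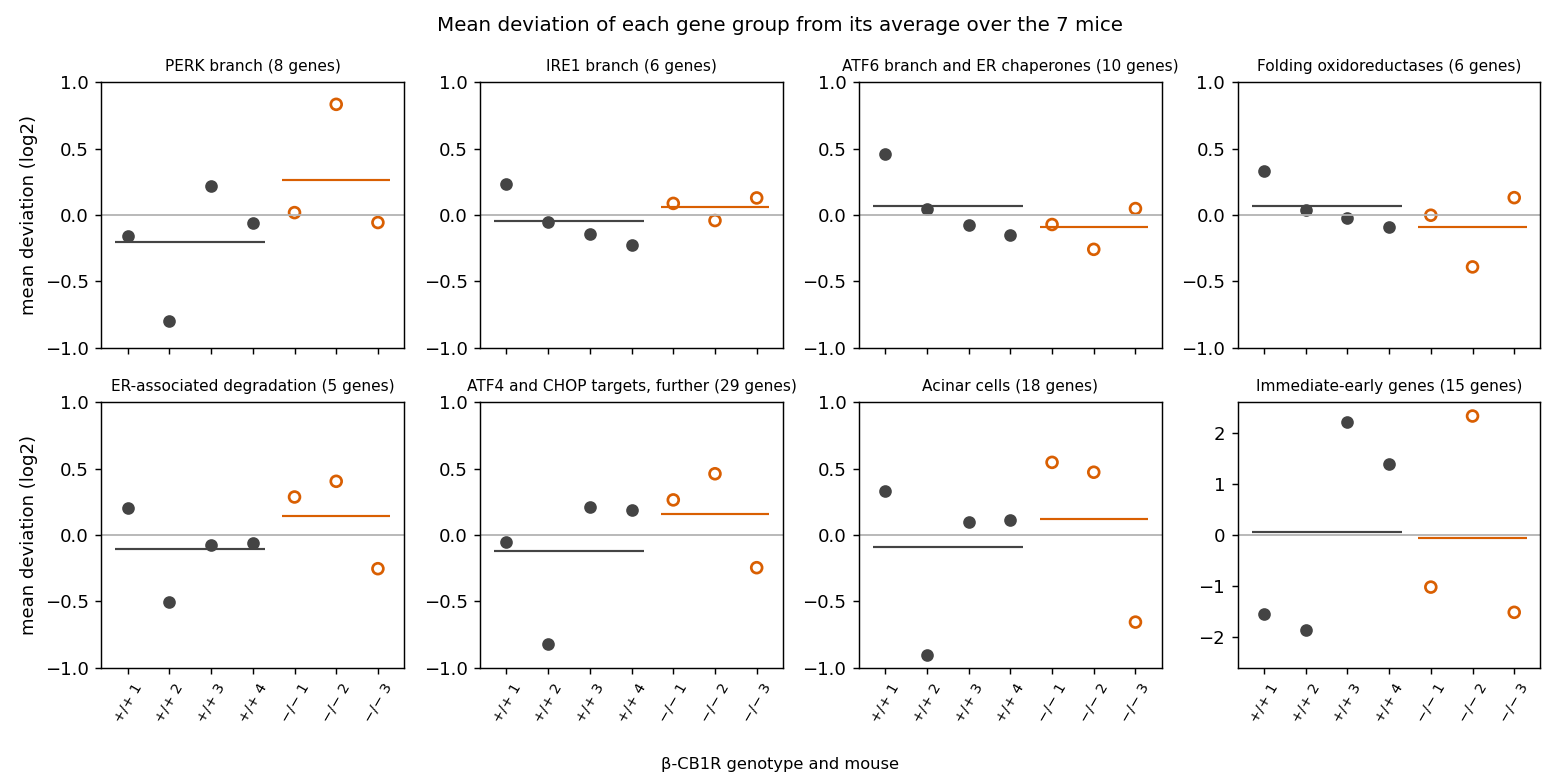
The mean deviation (y axis, log2) of each gene group from its own average over the 7 mice, for each mouse (x axis). Filled points are β-CB1R+/+ mice, open points β-CB1R−/− mice and horizontal lines the mean of each genotype. The immediate-early panel has a wider y axis. β-CB1R+/+ mouse 2 and β-CB1R−/− mouse 3 are lowest for acinar genes, at −0.90 and −0.66, and for the further ATF4 and CHOP targets, at −0.82 and −0.25.

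RNA of other cell types differed between the mice as well. Over 18 compared acinar genes of 20 listed, digestive enzymes such as Cela1 and Ctrl, the mean deviation was −0.90 in β-CB1R+/+ mouse 2 and −0.66 in β-CB1R−/− mouse 3 and between 0.10 and 0.55 in the other 5. The summed acinar log2 level ranged from 13.76 to 14.73 in β-CB1R+/+ and from 13.82 to 14.91 in β-CB1R−/− islets, and 17 of the 18 had a log2 difference above 0, with a median of 0.18. Without β-CB1R+/+ mouse 2, 4 were higher and 14 lower with a median of −0.057, and without β-CB1R−/− mouse 3 all 18 were higher with a median of 0.51. These 2 mice were the lowest pair for 7 of the 37 genes, Eif2ak3, Asns, Dnajb11, P4hb, Herpud1, Sel1l and Derl3 (18.9%, against 13% of all genes and 88.9% of the acinar genes). They were the highest pair for 6, Ern1, Hyou1, Canx, Pdia3, Derl1 and Wfs1 (16.2%, against 19.8% of all genes), as they were for the beta cell genes Mafa, Pdx1, G6pc2 and Pcsk1, while for Ins2 and Iapp they were the lowest pair. Acinar cells are themselves rich in ER, and the part of their RNA in these values was not tested. With both mice left out, 5 of the 37 genes had an unadjusted p under 0.05 in limma: Trib3, Sel1l and Derl3 were higher and Hsp90b1 and Pdia3 lower in β-CB1R−/− islets, with an adjusted count of 0. That share of 13.5% stands beside 8.81% of all genes in the same fit. With the acinar mean as a covariate there were 2, Trib3 and Derl3 (5.41%, against 5.94% of all genes), also with an adjusted count of 0.

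Markers of endocrine and other cells were compared in the same way. Of the 11 beta cell genes 10 were lower in β-CB1R−/− islets, with a median log2 difference of −0.14 that was −0.435 without β-CB1R−/− mouse 3, and a summed log2 level of 11.97 to 12.36 in β-CB1R+/+ and 11.71 to 12.21 in β-CB1R−/− islets. The mean deviation of the beta cell genes, in which each gene counts alike, was lowest in β-CB1R−/− mouse 2 at −0.39, the mouse that was also lowest for the folding oxidoreductases, and ranged from −0.10 to 0.35 in β-CB1R+/+ mice. Of 7 alpha cell genes 6 were lower, with a median of −0.59 (−0.32 without β-CB1R−/− mouse 2) and a summed log2 level of 10.44 to 10.78 against 10.17 to 10.35. Irx1, Irx2 and Ttr were lower at an unadjusted p under 0.05 in limma, 3 of the 7 genes. That threshold took 3.9% of all genes in either direction. The values of Ttr did not overlap between the genotypes (14.3% of the list, against 4.83% of all genes). Of the macrophage genes 9 of 10 were higher, with a median of 0.40 and a summed log2 level of 5.50 to 5.93 against 5.95 to 6.55. Of 8 genes of stellate cells and fibroblasts 7 were higher, with a median of 0.94. Their mean deviation was 2.05 in β-CB1R+/+ mouse 4, from −1.58 to −0.63 in the other 3 controls and from 0.12 to 0.81 in β-CB1R−/− mice. The median was 1.72 without β-CB1R+/+ mouse 4, the only control above any β-CB1R−/− mouse, and 0.435 without β-CB1R+/+ mouse 2. The median was 0.10 over 7 duct genes (−0.05 to 0.27 without 1 mouse), 0.03 over 7 endothelial genes (−0.10 to 0.11 without 1 mouse), 0.20 over 5 genes of T and B cells bright enough to compare (−0.001 without β-CB1R−/− mouse 1) and −0.35 over 4 genes of delta and PP cells. The 15 immediate-early genes had a mean deviation of 2.22 in β-CB1R+/+ mouse 3, 1.39 in β-CB1R+/+ mouse 4 and 2.33 in β-CB1R−/− mouse 2, and from −1.86 to −1.02 in the other 4. The cytosolic heat shock genes, 9 compared of 10 listed, had a median of −0.28. Outside the alpha cell list, the T cell gene Cd3e was lower in β-CB1R−/− islets (limma unadjusted p = 0.047). Without overlap between the genotypes, the macrophage gene C1qb was higher and the heat shock gene Hspe1 lower. None of the genes in these lists passed the adjusted threshold, and the part of any of these shifts in the 37 genes was not tested.

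Further genes of the pathway, 137 in 6 lists of which 135 could be compared, gave 59 higher and 76 lower in β-CB1R−/− islets, with 0 past the adjusted threshold and 1 at an unadjusted p under 0.05 in limma. The share called at the unadjusted threshold was 0.741%, against 3.9% of all genes, and 43.7% were higher, against 44.3% of all genes. The 29 compared genes among 30 further targets of ATF4 and CHOP had 24 higher and 5 lower and a median log2 difference of 0.35, beside −0.04 over all genes. Without β-CB1R+/+ mouse 2 they were 20 higher and 9 lower with a median of 0.14, and with the acinar mean as a covariate 22 and 7 with a median of 0.19. β-CB1R+/+ mouse 2 and β-CB1R−/− mouse 3 were the lowest pair for 11 of the 29 (37.9%, against 13% of all genes). Atf3, among the 29, is also in the immediate-early list. The values of 4 of the 29 (13.8%) did not overlap between the genotypes, against 4.83% of all genes, and these were Cebpg, Slc7a5, Slc3a2 and Mars. The gene at the unadjusted threshold was Tnfrsf10b, the death receptor DR5 that CHOP induces. It was dim, well below its array's 75th percentile in every mouse. It was at −2.93, −2.54, −2.56 and −1.90 in β-CB1R+/+ mice and at −1.60, −1.81 and −2.02 in β-CB1R−/− mice, with a log2 difference of 0.67 (standard error 0.27, limma unadjusted p = 0.0388, adjusted p = 0.999). Slc7a5, the light chain of the leucine transporter, was at 1.73, 1.23, 1.59 and 1.53 against 1.89, 2.38 and 1.83, with a log2 difference of 0.51 (standard error 0.22). Cebpg, the dimer partner of ATF4, was at −0.22, −0.23, −0.11 and −0.53 against −0.00065, 0.16 and 0.24, with a log2 difference of 0.41 (standard error 0.19).

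With all 7 mice the other 5 lists each had a median log2 difference below 0, beside −0.04 over all genes. Single mice moved these medians, for the ER exit list without bringing it to that of all genes. Without β-CB1R−/− mouse 2 the translocon list had 13 higher and 12 lower with a median of 0.014, the further folding list 15 and 16 with a median of −0.023, and the lists of sensors, degradation and ER exit medians of −0.023, −0.043 and −0.07, beside −0.022 over all genes. The ER exit list then had 4 higher and 10 lower. Without β-CB1R+/+ mouse 1 the translocon list had 10 higher and 15 lower with a median of −0.026, and the folding, degradation and ER exit lists had medians of −0.05, −0.027 and −0.10, beside −0.025 over all genes, with the ER exit list at 5 higher and 9 lower. The sensors list had a median of −0.018 without β-CB1R+/+ mouse 2 and of −0.016 without β-CB1R−/− mouse 1. With all mice, the translocon, signal peptidase and glycosylation list had 4 higher and 21 lower of 25, with a median log2 difference of −0.10. Its smallest unadjusted p belonged to Ddost, a subunit of the oligosaccharyltransferase, which was at 2.96 in β-CB1R−/− mouse 2 and at 4.90 to 5.40 in the other 6 mice (log2 difference −0.71, standard error 0.52). Genes of ER exit and retrieval had 5 higher and 9 lower of 14 with a median of −0.20, and the coat protein gene Sec23a had a log2 difference of −0.33 (standard error 0.22). The further folding enzymes and chaperones had 11 higher and 20 lower among 31 compared of 32, with a median of −0.14, and one of them, Pdia2, is also in the acinar list. The further sensors and processing factors had 6 higher and 10 lower of 16 with a median of −0.14, and Bax, the pore-forming cell death protein, had a log2 difference of −0.65 (standard error 0.45). The further genes of ER-associated degradation had 9 higher and 11 lower of 20, with a median of −0.08, and Edem2, a relative of Edem1, had a log2 difference of 0.43 (standard error 0.27).

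For 6 of the 37 genes a second probe could be compared. The dimmer probe gave a log2 difference of −0.19 for Dnajb9 and −0.29 for Pdia6, in the direction of the brighter one. For Atf4 (0.18), Sec61b (0.15), Dnajb11 (0.43) and Derl1 (0.13) its direction was the opposite, each time with an adjusted p of 0.999 in limma and a difference of under 2 standard errors from 0.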

How the data were processed

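Islet RNA was measured on Agilent arrays in 1 colour (Cy3). The authors deposited each spot's intensity from Feature Extraction 11.5.1.1, corrected for background but unscaled between arrays, with a Z score per spot whose scale matches the standardised log10 intensity. From the deposited intensities, 59305 non-control spots per array were put on the log2 scale relative to the array's 75th percentile. Non-uniform spots and population outliers were dropped. Means were taken over the spots of each probe and over the pair of repeat arrays, and saturation occurred on no array. Comparison required a probe well above background in at least 3 of 7 mice, which 39165 of 55681 probes met. Accessions were matched to RefSeq symbols (28020 probes), and the brightest compared probe stood for each of 16955 genes. Ero1l, Ero1lb and Mars are Ero1a, Ero1b and Mars1 in RefSeq. Coordinates are those of RefSeq's GRCm38.p6 promoter table. The arrays' own header names another build, so no probe position is given.

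Genotypes were compared per probe, over all compared probes, in limma 3.58.1 (R 4.3.3) by two-sided tests at a Benjamini-Hochberg adjusted 0.05. Single genes were also given an exact permutation test (35 splits). The model was tested on simulated data. Values were given in full for the 3 sensors, Hspa5, Xbp1, Atf4, Ddit3, any member past a threshold or without overlap, and the 5 members with the largest SD within genotypes. Creld2, Hsp90b1, Pdia3, Ero1lb, Herpud1, Nucb2, Slc3a2, Mars and the genes named by their extreme mouse were added after their values were seen. The members and lists were chosen with earlier results of these data known. Labels give the mice as separate replicates without naming litters.

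The alternatives were a normexp background (offset 50), quantile normalisation, Z scores computed here or taken as deposited (both rescaled to log2), dim probes kept, probes above background on every array, each repeat array by itself, a replicate block, an intensity trend, the methods' t test, the mean over a gene's probes and each mouse left out. The acinar and immediate-early covariates and the fit without the 2 mice lowest in acinar RNA were added after the data were seen.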

Additional observations from a re-analysis of the deposited data

Results flagged for a closer look

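In 5 of the 37 genes, 1 of the 4 β-CB1R+/+ mice lay far from the others by Dixon's criterion, where chance alone gives about 1 in 20. The share was 13.5%, against 7.5% of the 16942 genes measured in all 4 mice. Mouse 2 was low for Chac1, at 2.29 against 3.82 to 3.97 in the other β-CB1R+/+ mice. Mouse 1 was high for the other 4 (10.8%, against 1.36% of those genes), which encode folding factors and the ubiquitin ligase HRD1. It was at 4.14 for Dnajc3 (others 3.55 to 3.64), at 6.76 for Creld2 (5.77 to 5.91), at 7.89 for Pdia6 (7.29 to 7.37) and at 6.15 for Syvn1 (5.40 to 5.52). These 4 values come from 1 mouse, so they are not independent of each other. The 4 genes also have an ERSE match in the promoter window, and its part in these values was not tested. The 3 β-CB1R−/− mice were too few for this criterion.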

How the results depend on the processing

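The count of genes past the adjusted threshold was 0 under all 22 alternatives. The count at an unadjusted p under 0.05, 1 in the report, was 3 with a normexp background (Ddit3, Trib3 and Derl3, 8.11% against 3.61% of all genes), 0 with the methods' t test (against 4.36%), 2 with the acinar covariate (5.41% against 5.94%) and 5 without the 2 mice lowest in acinar RNA (13.5% against 8.81%). Leaving out 1 mouse gave 0 to 5, with 0 without β-CB1R−/− mouse 2 (against 2.14% of all genes), 2 without β-CB1R−/− mouse 1 (Ddit3 and Trib3, 5.41% against 3.74%) and 5 without β-CB1R−/− mouse 3 (Trib3, Hsp90b1, Pdia3, Herpud1 and Nucb2, 13.5% against 10.1%). The median of the degradation genes ranged from 0.0485 to 0.639 when 1 mouse was left out, where the SD between mice of that group's mean was 0.317, and no other group median moved by more than the SD of its own group's mean. The sign of the difference changed for 15 of the 37 genes in at least 1 fit without 1 mouse. Of the 12 genes followed under every alternative it changed for 3: Atf4 was 0.066 over the mean of its probes and −0.147 to 0.041 when 1 mouse was left out, Hspa5 −0.271 to 0.0102 and Ppp1r15a −1.15 to 0.0025, with −0.0025 under the normexp background. Hsp90b1, which was not among the 12, was above 0 under the normexp background. Same-numbered mice of the 2 genotypes correlated at 0.42, −0.27 and −0.06 in their deviations. The labels name no litters, so whether the numbers pair the samples is not known. With the replicate number as a block the count at the unadjusted threshold was 1 (2.7%, against 4.38% of all genes), and Trib3 had a log2 difference of 2.18. The cause of these changes was not tested. With 7 mice, the standard error had a median of 0.29 over the 37 genes. Only a difference several times its standard error could be resolved. That of Cnr1 (−1.97, standard error 0.33) missed the adjusted threshold.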
